A study of Mus musculus with 298 samples.

Results

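Peripheral blood of 3 control mice was followed over 19 weekly libraries each, and the late libraries (weeks 15 to 18) were set against the early libraries (weeks 2 to 4) of the same mouse. The windows hold 21 of the 57 control libraries, 12 late and 9 early, out of 298 libraries in the whole series. Members were chosen by the control treatment label and the week, not by any measured value. All 3 mice were SCLtTA/BCR-ABL animals on a C57BL/6 background with the genotype tTA+/-, BCR-ABL+/-, entered at 6 to 8 weeks of age. They drank water with tetracycline at 0.5 g/L throughout, which keeps the human BCR-ABL transgene off. Mouse 488 was female and sequenced in batch 2022_A, mouse 489 was female in batch 2021_E and mouse 490 was male in batch 2021_E, so each mouse stayed within 1 batch. The comparison cohorts carried the same alleles. CML mice were taken off tetracycline at week 0 (4 mice with libraries in both windows, 26 libraries), and TOTO mice were off tetracycline for 6 weeks and then back on it (4 mice, 20 libraries). All cohorts compared here carried the transgenes, and none was both free of induction and free of tetracycline, so in the control mice age, weeks on tetracycline and the number of bleedings cannot be told apart.

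In this model the tetracycline transactivator tTA is expressed under an enhancer of Scl (Tal1), a gene active in blood stem and progenitor cells, so the fusion kinase BCR-ABL is switched on in those cells when tetracycline is withdrawn. Chronic myeloid leukaemia then fills the blood with neutrophils and their precursors at the expense of lymphocytes. Untransformed blood also changes as a young mouse matures: the thymus shrinks and sends out fewer naive T cells. Blood loss calls on red cell and platelet production. The control mice show how far blood RNA moves over the same weeks with the transgene held off.

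Total RNA came from whole blood, although the tissue label reads PBMC, and ribosomal RNA was depleted. Haemoglobin transcripts made up 56.9%, 52.1% and 36.9% of the transcript abundance (TPM, a length-normalised share) in late libraries of mice 488, 489 and 490, against 56.2%, 48.2% and 51.5% in their early libraries. Without its week 17 library, mouse 490 was at 44.6% late. All markers of T cells (6), B cells (5), NK cells (5), neutrophils (6), monocytes (5), platelets (5) and red cells (6) were listed, and none of those for skin (4), liver (2) or muscle (3). The libraries were therefore blood with red cells and platelets, not purified mononuclear cells. The human transgene was listed at 0 TPM in 49 of 57 control libraries, was at most 0.716 TPM in the others and was 0 in every library of mouse 489. In bulk blood, fewer cells of a type and less RNA per cell cannot be told apart.

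The week 17 library of mouse 490 stood apart from the other 56. It listed 2552 genes at 1 TPM or more, where the next lowest control library had 6520 and the median was 10358. Rn7s2, the RNA of the signal recognition particle, took 56% of its TPM, and its haemoglobin share was 13.7%. Its median correlation with the other control libraries was 0.413, against 0.907 for the next lowest. S100a8, a neutrophil calcium-binding protein, was at 4.07 TPM there and at 127 to 2150 TPM in the other libraries of this mouse, and Cd79a, a chain of the B cell receptor complex, was at 1.31 TPM against 66.4 to 288 TPM. Rn18s-rs5, an 18S ribosomal RNA gene, was at 53100 TPM against 537 to 2300 TPM. Counts over all genes and most gene tests of control mice are given with and without this library. Rescaled list medians leave it out, and they can differ with it. The rescaled median of haemoglobin genes in mouse 490 was 0.63 with it and -0.55 without it.

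**Figure D1:**
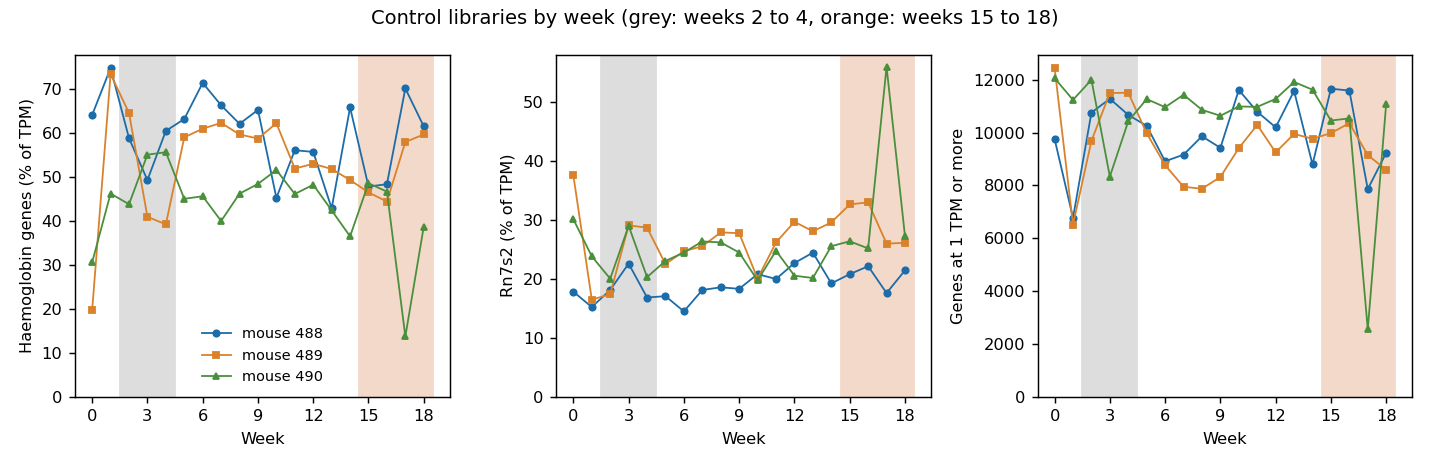
Haemoglobin share (left, % of TPM), Rn7s2 share (middle, % of TPM) and genes at 1 TPM or more (right) in each control library by week, 1 line per mouse, with weeks 2 to 4 in grey and weeks 15 to 18 in orange. The week 17 library of mouse 490 is the lowest in haemoglobin share (13.7%) and in genes listed (2552) and the highest in Rn7s2 (56%).

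The summed composition of the libraries did not pass a test for a shift between late and early weeks. The Rn7s2 share was 1.31, 4.38 and 10.6 percentage points higher in late weeks in mice 488, 489 and 490 (exact sign-flip test over 3 mice, two-sided, p = 0.25, the smallest value that 3 mice allow). Without the week 17 library mouse 490 was 3.15 points higher. The number of genes at 1 TPM or more, late minus early, was -816 in mouse 488 and -1380 in mouse 489. In mouse 490 it was -1590 with the week 17 library and 443 without it. The haemoglobin share moved by 0.749, 3.88 and -14.6 percentage points (exact sign-flip p = 1).

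As deposited, with all libraries, 75 genes were higher (0.703% of 10662 tested) and 3110 lower (29.2%) in late than in early weeks. The test used 1 change per mouse on log2(TPM + 1), limma and Benjamini-Hochberg adjusted p under 0.05. Without the week 17 library of mouse 490, 9 genes were higher (0.0844%) and 13 lower (0.122%). Without mouse 490 altogether, 63 were higher and 1089 lower in mice 488 and 489. The median of all genes was -0.36 with that library and -0.19 without it (log2). The mice differed in this shift: without the library it was -0.27 in mouse 488, -0.56 in mouse 489 and 0.24 in mouse 490. After rescaling by median-ratio size factors, which brings the medians to -0.04, -0.05 and 0.01, no gene passed (0%). At an unadjusted p under 0.05, 1880 genes remained on that scale, and 457 with the week 17 library included. An added fit that took weekly libraries as units with mouse as a block, rescaled and without that library, called 143 genes higher (1.34%) and 342 lower (3.21%). Weeks of 1 mouse are repeated measures, so those p-values are too small, and no call below rests on them.

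Of the genes with the largest changes that were higher in all 3 mice, Ltf, which encodes the iron-binding neutrophil granule protein lactoferrin, had 0.373, 7.12 and 268 TPM in late libraries (lowest, median and highest), against 0.466, 2.05 and 4.28 TPM in early ones. It rose by 1.49 ± 0.27 (log2, moderated SE of limma, n = 3 mice, limma adjusted p = 0.00744) with the week 17 library, which held the 268 TPM. Without that library the change was 0.94 (adjusted p = 0.399). The moderated SE of gene changes in control mice rests mostly on the spread over all genes (18.64 prior and 2 residual degrees of freedom). It can be far smaller than the spread of a gene over the 3 mice. Week by week, Ltf in mouse 489 was at 0.208 to 2.82 TPM in weeks 0 to 6 and at 6.03 to 11.9 TPM from week 7 on. In mouse 488 it was at most 4.28 TPM before week 7 and at 6.42 to 25.4 TPM in weeks 7 to 16, then 0.373 and 1.52 TPM in weeks 17 and 18. In mouse 490 it stayed between 0.477 and 4.44 TPM outside week 17. The higher level thus appeared in mice 488 and 489 and not in mouse 490 outside week 17. Whether sex or batch played a part was not tested.

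The other genes at the top of the rises were not all carried by the same mouse or library. Spp1, the secreted glycoprotein osteopontin, passed as deposited with and without the week 17 library (1.88 ± 0.61, adjusted p = 0.0332, and 1.49, adjusted p = 0.0020). Mouse 490 alone carried this, with changes of 0.06, 0.05 and 5.54 in mice 488, 489 and 490 (4.37 in mouse 490 without week 17). The fit without week 17 took its spread wholly from all genes. Rescaled without week 17, Spp1 changed by 1.47 ± 0.86 (limma adjusted p = 0.393). Sparc, a collagen-binding matrix protein, rose by 1.18 ± 0.38 with all libraries (limma adjusted p = 0.0314). Lmna, the nuclear lamin A/C, rose by 0.91 ± 0.24 and Frmd4b by 0.67 ± 0.23 (limma adjusted p = 0.0244 and 0.0395). The highest late values of these 3 genes, 325, 289 and 239 TPM, were in the week 17 library. The other late libraries had at most 7.3, 20.3 and 5.63 TPM. Without week 17 Sparc, Lmna and Frmd4b changed by 0.64, 0.53 and 0.17 (limma adjusted p = 0.904 for each). In mice 488, 489 and 490 these changes were 0.07, 0.16 and 1.70 for Sparc and 0.49, 0.67 and 0.44 for Lmna. For Frmd4b they were 0.18, 0.19 and 0.14. Gsto1, a glutathione transferase, was at 28.0, 126 and 431 TPM late and at 28.5, 55.3 and 118 TPM early (lowest, median, highest), and rose by 1.10 ± 0.33 (adjusted p = 0.0288; 0.99 and adjusted p = 0.0995 without week 17). Emp1, an epithelial membrane protein, rose by 0.70 ± 0.26 (adjusted p = 0.0482), and its change without week 17 was 0.94 (adjusted p = 0.387). Mir6236, annotated as a microRNA gene, was at 4.41, 31.0 and 891 TPM late against 1.26, 6.35 and 86.1 TPM early (1.53 ± 0.31, adjusted p = 0.0113; 1.16 and adjusted p = 0.0518 without week 17). Gsto1, Emp1 and Mir6236 changed most in mouse 489, by 1.69, 1.75 and 2.48.

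Among the falls, Igha, the constant region of IgA, was lower in late weeks with and without the week 17 library (-1.43 ± 0.38, adjusted p = 0.0244, and -1.26, adjusted p = 0.0472). Rescaled without week 17 it changed by -1.01 ± 0.65 (limma adjusted p = 0.433). Mouse 489 carried the fall: its late libraries had 2.63, 7.11, 5.58 and 2.24 TPM and its early ones 38.8, 77.4 and 66.6 TPM. The step came early, since its week 5 value was 7.85 TPM and no later value was higher. Mouse 488 had 2.65 to 9.00 TPM late against 2.73 to 13.9 TPM early, and mouse 490 had 0 to 3.97 TPM late against 0.299 to 4.65 TPM early, so those 2 mice overlapped between windows. Vaultrc5, a vault RNA, was at 0 to 18.5 TPM late (median 1.22) and at 3.46 to 47.0 TPM early (median 5.86). It fell by 1.70 ± 0.20 on the log2 scale (limma adjusted p = 0.000506, and 0.0142 without week 17). Mice 488 and 489 carried this fall without week 17, with changes of -2.26 and -1.82, against -0.10 in mouse 490. Rescaled without week 17, Vaultrc5 changed by -1.30 ± 0.34 (limma adjusted p = 0.276). The remaining large falls were small nuclear, small nucleolar and related RNAs: Rmrp (-1.43), Rnu12 (-1.41), Snord3a (-1.41), Snord49b (-1.41), Scarna10 (-1.31), Snord83b (-1.29), Snora3 (-1.28) and Snord118 (-1.26). All 8 were listed at 0 TPM in the week 17 library of mouse 490, and none passed without it (adjusted p from 0.259 to 0.904). Several lie within host genes or, as Rmrp and Snord3a, are on more than 1 row of the table, so their share of reads is uncertain.

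T cell genes stood lower in late weeks. Of 22 T cell genes tested, 16 fell with all libraries (29.2% of all genes did) and none passed without the week 17 library. On the rescaled values without that library the list median was -0.24 (log2), beside -0.01 for all genes, and -0.40, -0.26 and -0.11 in mice 488, 489 and 490. Of the 22 genes, 15 were lower in all 3 mice, beside 27.1% of all genes, and none was higher in all 3. For the 14 naive T cell genes the median was -0.25 (-0.32, -0.25 and -0.19), with 8 lower in all 3 mice and 1 higher. As deposited without week 17, mouse 490 stood at 0.09 for T cell and 0.08 for naive T cell genes, below its all-gene median of 0.24.

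Il7r, the receptor chain through which interleukin-7 maintains naive T cells (chr15:9505874-9530262, GRCm39), was at 2.51, 6.47 and 13.2 TPM (lowest, median, highest) in the 11 late libraries without week 17 of mouse 490, and at 2.04, 13.3 and 22.3 TPM in the 9 early ones. Late ranges and medians of single genes in the following paragraphs leave out that library too. The ranges overlapped, because 1 early library of mouse 490 was at 2.04 TPM. The rescaled change of Il7r was -0.68, -0.63 and -0.46 in the 3 mice, and the deposited change was -1.06 ± 0.19 with all libraries (adjusted p = 0.00808) and -0.81 without week 17 (adjusted p = 0.796). Cd4, the co-receptor of helper T cells, was at 1.32, 2.73 and 4.27 TPM late and at 1.76, 5.70 and 12.2 TPM early. Its rescaled change was -0.51, -0.61 and -0.68, with a deposited change of -0.98 ± 0.16 (adjusted p = 0.00333; -0.81 and adjusted p = 0.726 without week 17). Lef1, a transcription factor of naive T cells, had a late median of 8.98 TPM and an early one of 14.6 TPM, with rescaled changes of -0.89, -0.40 and -0.32. Cd28, the co-stimulatory receptor, and Skap1, an adaptor in T cell adhesion, had rescaled changes of -0.37 and -0.38.

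Memory and effector T cell genes had a median of the opposite sign once rescaled. Of 16 tested, 1 fell as deposited with all libraries, beside 29.2% of all genes. This was Ly6c1, a surface antigen of the Ly6 family (-0.56 ± 0.16, limma adjusted p = 0.0261). Without week 17 the change of Ly6c1 was -0.45 (limma adjusted p = 0.904). On the rescaled values the list median was 0.28 (0.24, 0.06 and 0.33), and 9 of 16 genes were higher in all 3 mice, beside 17% of all genes. As deposited without week 17 the medians were -0.03, -0.50 and 0.58. Cxcr3, the chemokine receptor of effector T cells, had rescaled late values of 1.29 to 1.81 and early values of 0.539 to 1.27, with no overlap between the windows. Over all genes, 7 were higher (0.0657%) and 3 lower (0.0281%) without overlap between the libraries of the windows. Cxcr3 was singled out after these values were seen. Its rescaled change was 0.43, 0.19 and 0.59. The difference between the naive and the memory lists was not tested.

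B cell genes were lower as deposited but near the median of all genes once rescaled. Of 23 tested, 10 fell with all libraries (29.2% of all genes did) and none without week 17, the rescaled median was -0.09, and 11 were lower in all 3 mice (27.1% of all genes were). Transcription factors of the lineage were among the genes that fell. Bach2, which restrains plasma cell differentiation, had a late median of 13.4 TPM and an early one of 33.6 TPM, with a deposited change of -1.01 ± 0.26 (adjusted p = 0.0234) and rescaled changes of -0.26, -0.54 and -0.73. Ebf1, which specifies the B lineage, had medians of 11.9 TPM late and 24.1 TPM early (-0.90 ± 0.24, adjusted p = 0.0244) and rescaled changes of -0.25, -0.31 and -0.51. Bank1, a B cell scaffold protein, had rescaled changes of -0.14, -0.27 and -0.23, and Ms4a1, the surface protein CD20, of -0.29, -0.26 and 0.08. Without week 17 the deposited changes of Bach2 and Ebf1 were -0.74 and -0.57 (adjusted p = 0.859 and 0.904). Of 8 immunoglobulin constant genes 3 fell with all libraries (29.2% of all genes did) and 1, Igha, without week 17 (0.122% of all genes did). Mouse 489 carried the fall of Igha, and its change in mouse 490 without week 17 was 0.21.

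Of 17 NK cell genes tested, 7 fell with all libraries (29.2% of all genes did) and none without week 17. On rescaled values the median was -0.10, with 6 lower in all 3 mice (27.1% of all genes were) and 1 higher. Klrd1, the CD94 chain of NK receptors, had medians of 3.57 TPM late and 7.49 TPM early, and rescaled changes of -0.44, -0.29 and -0.45 (deposited -0.78 ± 0.16, adjusted p = 0.0126; -0.58 and adjusted p = 0.904 without week 17). Klra4 and Klra8, receptors of the Ly49 family, had rescaled changes of -0.31 each. Ly49 genes are close copies of each other and their reads may be shared.

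Platelet and megakaryocyte genes stood higher in late weeks. None of 22 passed the test with 1 change per mouse, as deposited or rescaled, with or without week 17. On deposited values without week 17 of mouse 490, all 22 were higher in all 3 mice, beside 5.34% of all genes, with list medians of 0.33, 0.36 and 0.30 and an all-gene median of -0.19. With the week 17 library the list median was 0.02. After rescaling without it, the median was 0.55 (0.66, 1.01 and -0.02), and 10 of 22 genes were higher in all 3 mice, beside 17%. Rescaling thus left the difference in both female mice and not in mouse 490. Gp9 (chr6:87755047-87756750, GRCm39), which encodes part of the platelet receptor for von Willebrand factor, was at 93.6, 147 and 224 TPM late and 84.9, 117 and 204 TPM early, with rescaled changes of 0.69, 1.17 and 0.06. Itga2b, the fibrinogen receptor chain and a megakaryocyte marker, was at 120, 181 and 242 TPM late and 115, 133 and 201 TPM early (0.68, 1.12 and -0.03 rescaled). Gp1bb, another chain of the same receptor as Gp9, had medians of 36.7 TPM late and 24.2 TPM early and rescaled changes of 0.82, 1.57 and 0.24. Pf4, platelet factor 4, had medians of 453 TPM late and 398 TPM early, within overlapping ranges.

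Because these genes moved together, their promoters were searched for AGATAA, the sequence that GATA1 binds in megakaryocytes and red cells, on either strand, from 250 bases before to 50 after the start site. RefSeq promoters on GRCm38.p6 were found for 16 of the 22 genes, and 5 (31.2%) held a match, beside 3083 of 27025 promoters (11.4%). A match describes the letters only. The 3 with the match upstream of the start are shown as examples, 5′ to 3′ in the gene's direction, with the motif or its reverse complement in capitals: Gp6, the platelet collagen receptor (chr7:4397856-4397915, minus strand), F2rl2, a thrombin receptor (chr13:95696798-95696857, plus strand), and Gp5, glycoprotein V (chr16:30310842-30310901, minus strand).
Gp6: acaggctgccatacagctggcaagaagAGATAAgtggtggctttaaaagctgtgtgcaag
F2rl2: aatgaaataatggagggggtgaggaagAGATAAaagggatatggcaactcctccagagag
Gp5: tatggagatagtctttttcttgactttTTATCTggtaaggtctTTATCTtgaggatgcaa

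Monocyte and secondary granule genes had positive medians in all 3 mice on rescaled values, largest in mouse 490. Monocyte genes (23 tested, none called) had a rescaled median of 0.43, with 0.11, 0.16 and 0.75 in mice 488, 489 and 490, and 15 were higher in all 3 mice (17% of all genes were). As deposited without week 17 the monocyte medians were -0.15, -0.43 and 1.00, so in mice 488 and 489 the sign turned with the scale. Apoe, the apolipoprotein made by monocytes and macrophages, had rescaled late values of 69.6 to 99.7 and early values of 37.9 to 67.6, with no overlap (0.0657% of all genes, singled out after the values were seen), and rescaled changes of 0.25, 0.56 and 0.75. Fcgr1, the high-affinity IgG receptor, had medians of 2.52 TPM late and 1.68 TPM early and rescaled changes of 0.00, 0.67 and 1.62. Secondary granule genes of neutrophils (13 tested) had a rescaled median of 0.38 (0.33, 0.21 and 0.91). Of these, 10 were higher in all 3 mice (17% of all genes were). Their medians were 0.06, -0.41 and 1.21 as deposited without week 17. With all libraries 2 of the 13 rose (0.703% of all genes did), Ltf and Ngp, the neutrophilic granule protein. Ngp was at 0.306, 0.960 and 3.47 TPM late and 0.0791, 0.452 and 1.84 TPM early (0.64 ± 0.22, adjusted p = 0.0382; 0.25 and adjusted p = 0.904 without week 17). Mature neutrophil genes had a rescaled median of 0.18, -0.06 in mouse 489, with 3 of 22 higher in all 3 mice, near the background of 17%. The 5 basophil and mast cell genes tested had 0.40, 0.59 and 0.20, lowest in mouse 490.

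Red cell genes had no common direction. The 6 haemoglobin genes tested had rescaled medians of 0.35 and 0.80 in mice 488 and 489 and of -0.55 in mouse 490, and red cell membrane genes 0.32, 0.66 and -0.38. Hbb-bs and Hba-a1 changed by -0.18 ± 0.19 and -0.11 ± 0.21 as deposited (adjusted p = 0.416 and 0.661), and by 0.19 and 0.25 when rescaled without week 17. The adult globin copies share most of their sequence, so the split between them is uncertain. Bcr and Abl1, the mouse genes whose human counterparts are joined in the transgene, had late medians of 8.26 and 7.04 TPM and early medians of 7.77 and 8.67 TPM.

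Glycolysis and immediate early genes had positive rescaled medians in all 3 mice, though no member passed on that scale. Glycolysis genes (17 tested, none called) had a rescaled median of 0.34 (0.26, 0.32 and 0.40), with 10 higher in all 3 mice (17% of all genes were), and -0.06, -0.27 and 0.67 as deposited without week 17. Immediate early genes (17 tested) had 0.32 (0.29, 0.36 and 0.37), also with 10 higher in all 3, and -0.04, -0.24 and 0.65 as deposited. In mice 488 and 489 the sign of both lists thus turned with the scale. Egr1, an activation-induced transcription factor of that list, rose with all libraries (0.89 ± 0.27, adjusted p = 0.0277; 0.75 and adjusted p = 0.904 without week 17), at 1.53, 5.47 and 33.8 TPM late without week 17 and 1.16, 3.72 and 18.4 TPM early. Interferon response genes (31 tested) had a rescaled median of 0.26 but -0.07 in mouse 488. As deposited with all libraries 1 of them fell, beside 29.2% of all genes. Ribosomal protein genes (62 tested) had 0.06, and Rpl5 was lower in all 3 mice (-0.27, -0.63 and -0.29 rescaled; deposited -0.90 ± 0.22, adjusted p = 0.0201; -0.60 and adjusted p = 0.904 without week 17). Mitochondrially encoded genes (13 tested) had a rescaled median of -0.17, with 7 lower in all 3 mice (27.1% of all genes were) and none higher. As deposited with all libraries 1 of them fell (29.2% of all genes did).

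Clock genes moved with the general shift of the deposited values: their median was -0.40, beside -0.36 for all genes. Of 10 tested 5 fell with all libraries (29.2% of all genes did), among them Tef (-0.61 ± 0.16, adjusted p = 0.0244), Dbp (-0.44 ± 0.15, adjusted p = 0.0363), Nr1d2 (-0.49 ± 0.16, adjusted p = 0.0342) and Cry1 (-0.40 ± 0.15, adjusted p = 0.0437). None passed without week 17 (adjusted p = 0.904 for these 4), and the rescaled list median was -0.09. Times of day of the bleedings were not given in the sources used here. Of 11 glucocorticoid response genes tested, 1 rose (0.703% of all genes did) and 2 fell (29.2% did) with all libraries. The falls were Fkbp5 (-0.54 ± 0.17, limma adjusted p = 0.0311) and Tsc22d3 (-0.90 ± 0.33, limma adjusted p = 0.0449). Neither passed without week 17 (limma adjusted p = 0.904 for both). The rescaled list median without week 17 was 0.001. Mt2, a metallothionein of the glucocorticoid list, rose with all libraries (0.80 ± 0.23, adjusted p = 0.0257; 0.66 and adjusted p = 0.216 without week 17), with rescaled changes of 0.18, 0.27 and 1.46 without week 17.

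**Figure D2:**
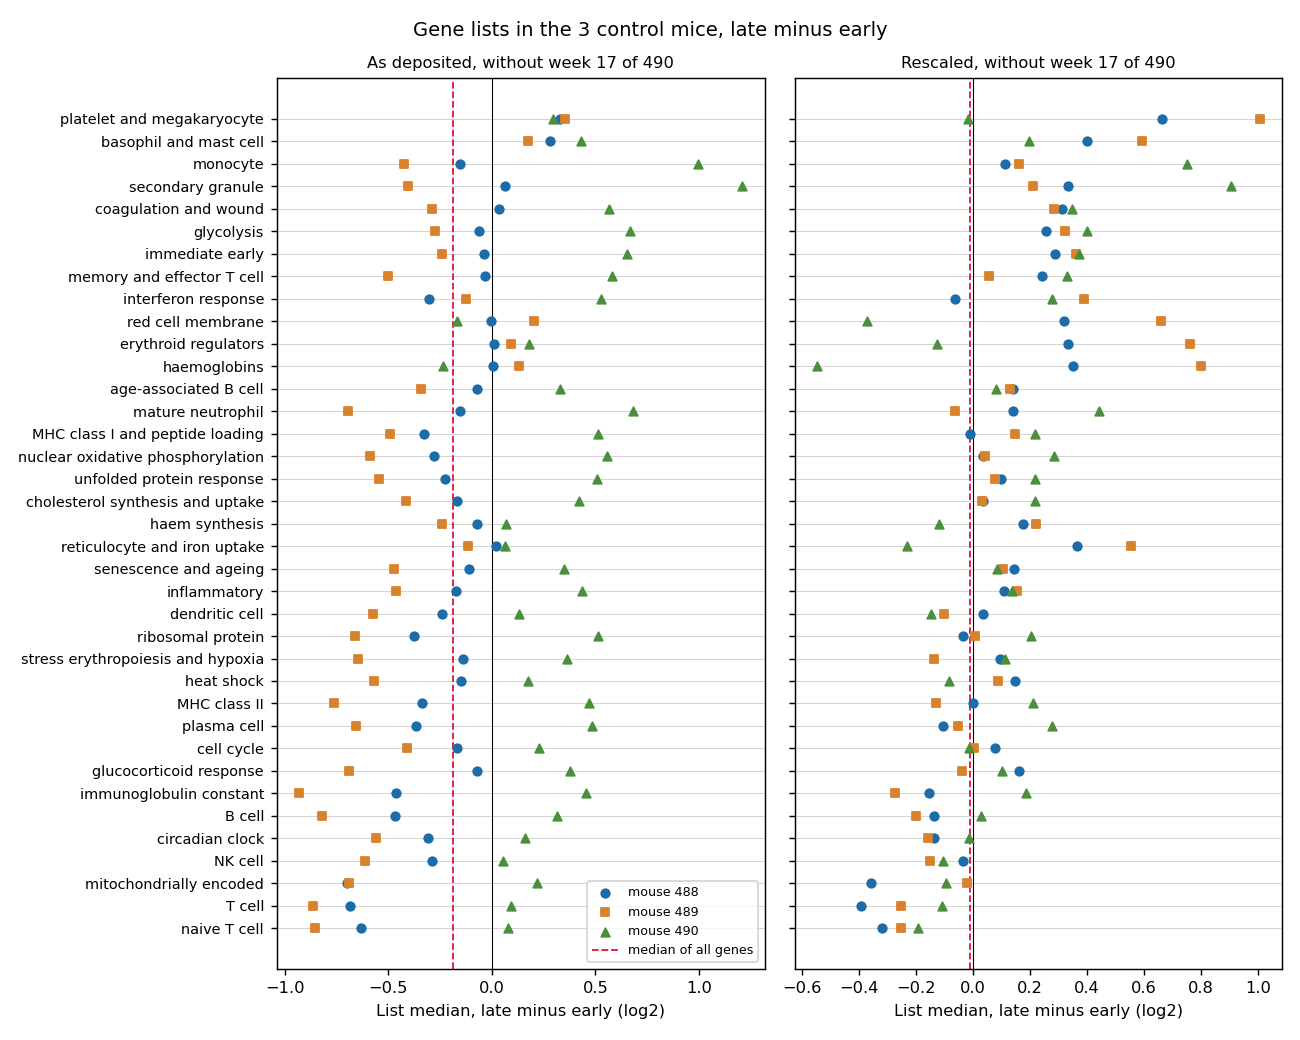
Median late minus early change (log2) of the genes of each list in mice 488, 489 and 490, as deposited (left) and rescaled (right), both without week 17 of mouse 490. The dashed line is the median of all genes over the 3 mice (-0.19 left, -0.01 right). Left, platelet genes lie within 0.30 to 0.36 in the 3 mice, and right, naive T cell genes lie within -0.32 to -0.19.

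The weekly course of these lists is given by blocks of weeks. Whether the shifts followed a steady slope was not tested. Naive T cell genes, on rescaled values relative to the mouse's own weeks 2 to 4, averaged -0.15 ± 0.15 in weeks 5 to 8, -0.16 ± 0.18 in weeks 9 to 12, -0.27 ± 0.24 in weeks 13 and 14 and -0.22 ± 0.10 in weeks 15 to 18 (SD over 3 mice). In some weeks, picked after the course was seen, mice 488 and 489 had similar values. The naive T cell list was at -0.42 and -0.46 in week 6, at -0.04 and 0.12 in week 7 and at -0.52 and -0.52 in week 8. In mouse 490 those weeks were at 0.01, 0.12 and 0.08. The platelet and megakaryocyte list was at 1.29 and 1.83 in week 7 and 1.28 and 1.70 in week 14 in mice 488 and 489, and at -0.22 and -0.82 in mouse 490. Size factors of mice 488 and 489 were 0.616 and 0.578 in week 6 and 0.646 and 0.441 in week 7. Their part in these values, and agreement over all weeks, were not tested.

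Platelet genes averaged 0.98 ± 1.53 in week 1, outside both windows, with a range over mice of -0.77 to 2.08. The week 1 libraries of mice 488 and 489 listed only 6771 and 6520 genes at 1 TPM or more. Platelet genes averaged 0.52 ± 0.64 in weeks 5 to 8 and 0.56 ± 0.52 in weeks 15 to 18. Monocyte genes averaged -0.02 ± 0.22 in weeks 5 to 8, 0.02 ± 0.09 in weeks 9 to 12, 0.35 ± 0.36 in weeks 13 and 14 and 0.40 ± 0.37 in weeks 15 to 18.

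**Figure D3:**
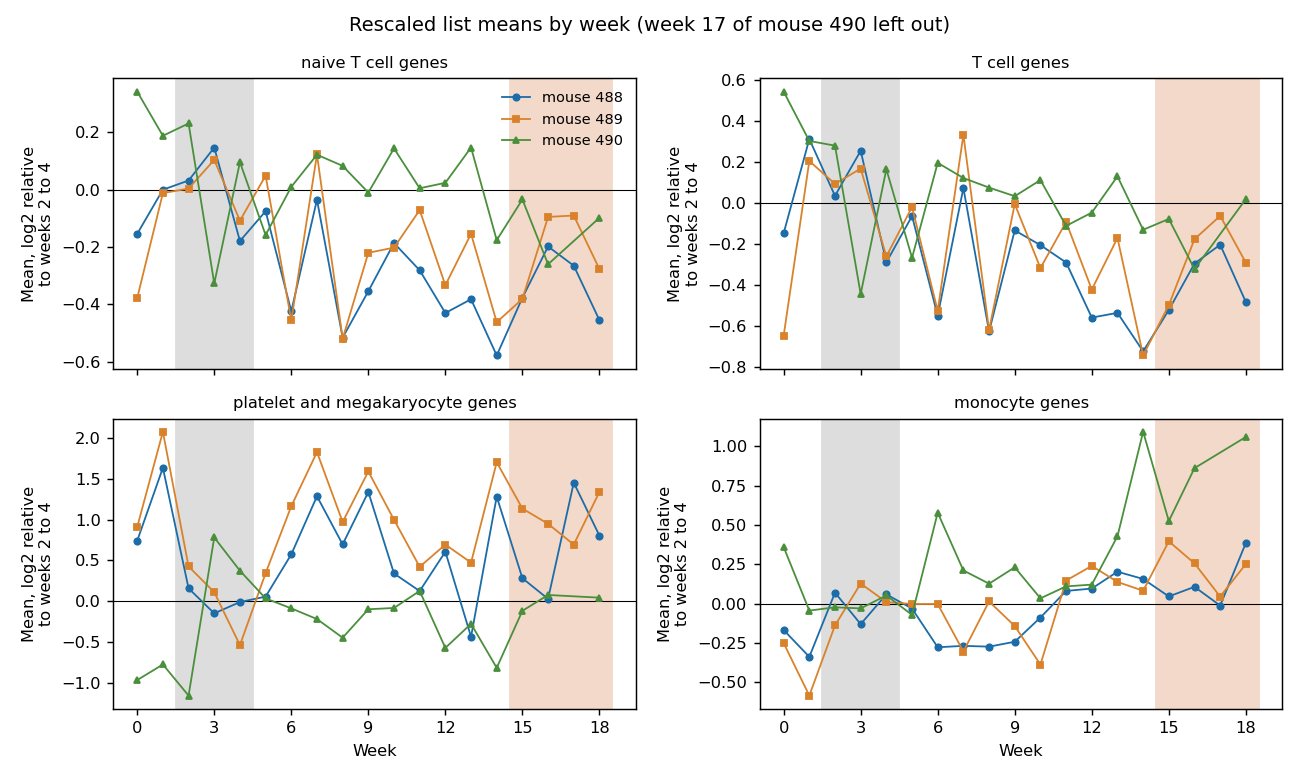
Mean rescaled level of the naive T cell, T cell, platelet and monocyte lists in each control library by week (log2, relative to the mean of weeks 2 to 4 of the same mouse), 1 line per mouse, with early weeks in grey and late weeks in orange. In some weeks mice 488 and 489 have similar values, such as naive T cell genes at -0.52 in both in week 8, and mouse 490 has the highest late monocyte level.

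Among the control mice, mouse 490 had a rise of Spp1 and Col18a1 that began at week 10, before the late window. Spp1 was at 0.0402 to 0.873 TPM in weeks 0 to 9 of this mouse and at 8.04, 28.7, 35.5, 9.84, 110, 12.0, 37.6, 682 and 36.7 TPM in weeks 10 to 18. In mice 488 and 489 it was at most 0.432 TPM in weeks 1 to 18, and 10.7 TPM in week 0 of mouse 488. Col18a1, a basement membrane collagen, was at most 0.164 TPM before week 10 in mouse 490 and at 10.9, 10.7, 2.22, 2.35, 50.9, 0.182, 11.8, 44.1 and 5.29 TPM afterwards. These genes were chosen after their values were seen, so the pattern is given with no test. The mitochondrial share of mouse 490 was 0.718%, 0.821%, 0.881% and 0.557% in weeks 11 to 14, against 0.193% to 0.403% in weeks 0 to 9. Its week 14 library had the median correlation of 0.907. Whether this bears on the pattern was not tested.

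Of 9785 protein-coding genes compared between weeks 10 to 18 without week 17 (8 libraries) and weeks 0 to 9 (10 libraries) of mouse 490, 3 were higher without overlap (0.0307%) and none was lower: Spp1, Col18a1 and Tm4sf1, a tetraspanin-like membrane protein. The lowest later value was 8.04 TPM for Spp1, against at most 0.873 TPM before. For Col18a1 these values were 0.182 and 0.164 TPM, and for Tm4sf1 1.25 and 1.24 TPM, so both were barely apart. Tm4sf1 also changed by 0.515 and 0.468 (log2) in mice 488 and 489. The split at week 10 follows the step in Spp1, so its lack of overlap is no separate result. Serpinh1, the collagen chaperone, was at 2.23, 8.69, 55.7, 0.0324, 11.1, 0.262, 8.04, 1.07 and 0.0782 TPM in weeks 10 to 18. Sparc was at 0.203, 4.86, 0.0920, 0.0327, 28.2, 0.302, 7.30, 325 and 3.05 TPM. Both were above 4 TPM in weeks 11, 14 and 16 and under 1 TPM in weeks 13 and 15, while week 12 was high in Serpinh1 and week 17 in Sparc.

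Col18a1 is also listed in the disease cohorts: its median was 5.29 TPM in 94 CML libraries, 2.11 TPM in 48 TOTO libraries and 7.53 TPM in 99 libraries of the nilotinib cohort, against 0.0366 TPM and at most 0.129 TPM in the 38 libraries of mice 488 and 489. Spp1 and Tm4sf1 also had higher medians in those cohorts. Spp1 was at 1.23, 1.17 and 2.23 TPM in CML, TOTO and nilotinib libraries, against 0.148 TPM in mice 488 and 489. Tm4sf1 was at 4.32, 2.27 and 6.26 TPM, against 0.955 TPM. Serpinh1 and the adhesion molecule Cadm1 stayed low there: their highest values outside mouse 490 were 1.65 TPM and 0.309 TPM. The transgene was listed at 0 in 3 of 4 late libraries of mouse 490 and at 0.632 TPM in the other, and in 2 of 4 of mouse 488 with at most 0.716 TPM. Over all weeks, mouse 490 listed it at 0.198, 0.715 and 0.632 TPM in weeks 9, 13 and 18 and at 0 in the rest. Mouse 488 listed it at 0.253, 0.588, 0.222, 0.716 and 0.277 TPM in weeks 2, 3, 11, 15 and 18. The part of the transgene in the pattern was not tested.

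**Figure D4:**
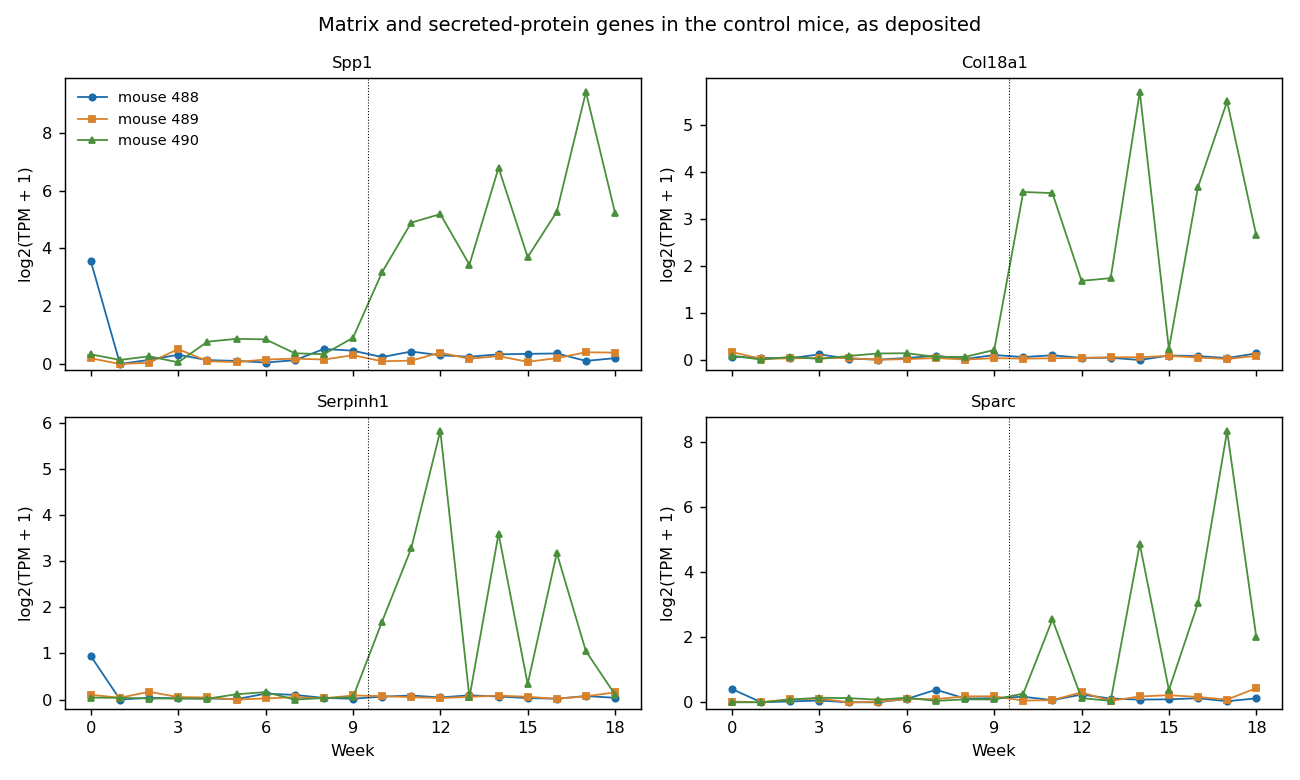
Spp1, Col18a1, Serpinh1 and Sparc in the control libraries by week on log2(TPM + 1), 1 line per mouse, with a dotted line between weeks 9 and 10. In mouse 490 all 4 genes exceed their earlier level in several weeks from week 10 on (Spp1 at 8.04 to 682 TPM), while mice 488 and 489 stay near 0 apart from week 0 of mouse 488.

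The change over the same weeks was set against that of CML mice (480, 487, 541 and 542) and TOTO mice (476, 482, 483 and 545). Both comparisons use the same 3 control mice and so are not independent. CML mice in the late window are those that survived to it. TOTO mice were off tetracycline in the early window and on it in the late one. CML mice were in batches 2021_E and 2022_B and TOTO mice all in 2022_A, so cohort and batch are partly confounded. The CML change minus the control change was higher for 84 genes (0.785% of 10704 tested) and lower for 24 (0.224%). The TOTO change minus the control change was higher for 1532 genes (14.3%) and lower for 507 (4.74%). Without the week 17 library the counts were 16 (0.149%) and 1 (0.00934%) for CML and 238 (2.22%) and 430 (4.02%) for TOTO. Rescaled and without it, they were 818 (7.64%) and 1498 (14%) for CML and 2269 (21.2%) and 2106 (19.7%) for TOTO. Single mice of any cohort moved the totals, since all 11 share 1 fit. For CML, 47 genes passed without control mouse 490, 68 without CML mouse 541, 178 without TOTO mouse 545 and 181 without CML mouse 487. For TOTO, 1099, 642 and 821 passed without control mice 488, 489 and 490, 803, 1048 and 985 without TOTO mice 476, 483 and 545, and 4662 without CML mouse 541.

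Neutrophil granule genes separated the cohorts by far more than the control mice drifted. Camp, the antimicrobial peptide precursor cathelicidin, changed by 4.04 in CML mice and 0.12 in control mice, a difference of 3.92 ± 0.47 (adjusted p = 1.24e-08). Ngp changed by 4.73 in CML mice and 0.64 in control mice (4.09 ± 0.51, adjusted p = 4.38e-08). Lcn2, an iron-siderophore carrier of granules, differed by 3.56 ± 0.51, S100a8 by 3.42 ± 0.50 and Retnlg, a resistin-like protein of neutrophils, by 3.23 ± 0.50 (adjusted p = 2.86e-06, 3.64e-06 and 1.45e-05). In TOTO mice Ngp changed by -6.44, against 0.64 in control mice (-7.08 ± 0.51, adjusted p = 5.50e-19), and Camp by -4.42 against 0.12 (-4.54 ± 0.47, adjusted p = 6.01e-12). Rescaled and without week 17, the secondary granule list had a median change of 2.51 in CML mice (2.25 to 3.23 by mouse), -2.48 in TOTO mice (-2.93 to -1.85) and 0.38 in control mice (0.20 to 0.74). As deposited with all libraries the control median was 0.005 (-0.27 to 0.25), and S100a8 and Retnlg changed by -0.64 and -0.46 in control mice.

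Lymphocyte genes ran the other way. Genes of B cells changed by a rescaled median of -1.86 in CML mice, 0.90 in TOTO mice and -0.09 in control mice. Of 23 tested, 5 were lower in CML than in control mice with all libraries (0.224% of all genes were). Rescaled without week 17, 18 were lower (14% of all genes), and on deposited values without it none was (0.00934%). With all libraries, 18 were higher in TOTO mice (14.3% of all genes were). Rescaled without week 17, 6 were higher in TOTO mice, near the 21.2% of all genes. The 5 genes that follow are given with all libraries. On deposited values without week 17, 1 of all genes tested was lower in CML than in control mice (0.00934%). At most 1 of the 5 therefore passed in that setting. Fcer2a (CD23), which binds IgE on B cells, changed by -2.62 in CML mice and -0.23 in control mice (-2.39 ± 0.50, limma adjusted p = 0.00257). Fcmr, the IgM receptor, differed by -2.24 ± 0.52, Blk, a B cell kinase, by -1.96 ± 0.47, Spib, a B cell transcription factor, by -2.00 ± 0.49 and H2-Q6, a class I gene with close copies, by -1.95 ± 0.46 (adjusted p = 0.0110, 0.0129, 0.0201 and 0.0120).

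For naive T cells the drift of the control mice was a larger part of the change. The rescaled medians were -0.93 in CML mice (-1.26 to -0.56), 0.46 in TOTO mice (0.13 to 0.60) and -0.25 in control mice (-0.32 to -0.19). No naive T cell gene passed between CML and control mice as deposited with all libraries. Rescaled without week 17, 6 of 14 were lower (14% of all genes were) and 1 higher (7.64%). Between TOTO and control mice 10 of 14 were higher (14.3% of all genes were), or 3 without week 17 (2.22%). Platelet genes changed by 1.14 in CML mice, -1.60 in TOTO mice and 0.55 in control mice. None of 22 passed between CML and control mice. In TOTO mice 14 were lower (4.74% of all genes were), or 18 without week 17 (4.02%). Monocyte genes had medians of 0.29 in CML mice, 0.03 in TOTO mice and 0.43 in control mice, and the ranges over mice overlapped.

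Further genes differed between TOTO and control mice. Saa3, an acute-phase serum amyloid, differed by -5.74 ± 0.49 (adjusted p = 2.96e-15), Col18a1 by -4.46 ± 0.43 (adjusted p = 7.18e-13) and Cd34, a stem and progenitor cell surface protein, by -3.57 ± 0.37 (adjusted p = 6.01e-12). The control mean for Col18a1, 1.00, came from mouse 490. On the other side Snora3 differed by 2.98 ± 0.44, Tdrp by 1.91 ± 0.32, Cecr2, a chromatin remodelling factor, by 1.68 ± 0.30, Hdac9, a histone deacetylase, by 1.62 ± 0.30, and Cd209a, a lectin of dendritic cells, by 1.53 ± 0.28 (adjusted p between 9.03e-07 and 7.24e-05). The haemoglobin share moved with these calls: it changed by 18.2 percentage points in TOTO mice and by -3.32 in control mice (exact permutation test over mice, two-sided, p = 0.0286, the smallest possible; adjusted over 4 summaries 0.0381). Without week 17 the difference was 18.9 points, adjusted p = 0.0572 (exact permutation test). By the same test the Rn7s2 share changed by -12.4 points in TOTO mice and 5.43 in control mice (adjusted p = 0.0381, and 0.0572 without week 17). Genes at 1 TPM or more changed by 325 and -1260 (adjusted p = 0.0381, and 0.229 without week 17). The part of these summaries in the gene calls was not tested.

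**Figure D5:**
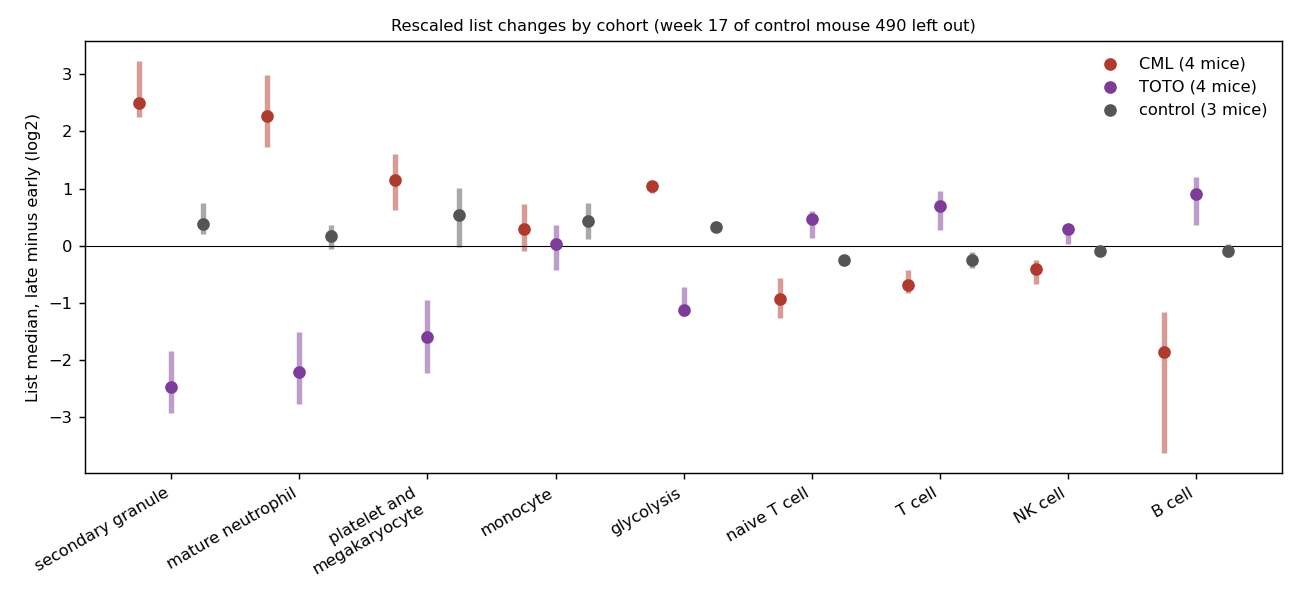
Median late minus early change (log2, rescaled, without week 17 of control mouse 490) of 9 gene lists in CML, TOTO and control mice. Points are the medians over genes of the cohort mean and bars run over the mice of the cohort. Secondary granule genes lie at 2.51 in CML, -2.48 in TOTO and 0.38 in control mice, and monocyte bars overlap in all 3 cohorts.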

How the data were processed

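Whole-blood RNA libraries were reverse stranded and depleted of ribosomal RNA, from samples with an RNA integrity number above 4, per the labels' protocols. STAR, Salmon and the build GRCm39 are named in the submitters' processing notes, with no versions. The deposited values are TPM per gene, which keeps no depth, so the depth of a library is unknown and no counting interval is given; 14605 genes are listed, 14604 of them at 1 TPM or more in at least 5 libraries. Of its genes 14537 were matched to GENCODE M39 by identifier, and 12 symbols stand on more than 1 row.

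From the deposited TPM, log2(TPM + 1) was averaged per mouse and window, and 1 change per mouse was tested with limma 3.58.1 in R 4.3.3 (moderated variance with trend) over genes with a mean of at least 1 TPM, with a Benjamini-Hochberg threshold of 0.05. Cohort differences were fitted over all 11 mice with both windows. Rescaled values are TPM divided by median-ratio factors over genes of at least 5 TPM. Scores per library used exact sign-flip or permutation tests. The self-test on simulated data ran with seed 1. Members and gene lists were chosen with earlier results of these data known, and each list is described by its counts and median. Named genes were the 10 largest changes in each direction that passed at a mean of 5 TPM or more with 1 sign in 3 mice, the smallest-p members of the lists, and the 5 smallest p in each direction for cohorts; 2 rises filled up by p without passing were Samd14 (adjusted p = 0.0527) and Ssx2ip (0.0531). Other genes with values were chosen after these were seen. The pairing of windows comes from the mouse label: deviations of a mouse's libraries correlated at 0.659, 0.288 and 0.378 with its own other window (mice 488, 489 and 490), and at most at -0.312, -0.085 and 0.006 with those of other mice. Replicates are separate mice. No libraries held identical values. Alternatives covered the scale, the week 17 library, pseudocount, filter, windows, block, batch and each mouse.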

Additional observations from a re-analysis of the deposited data

Results flagged for a closer look

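Late libraries of single mice (4 libraries each) were checked for 1 library far from the other 3. Of 78 groups checked, 14 were flagged, and 13 of the 14 were the week 17 library of mouse 490. Most groups were named genes, picked from a fit that included this library. The chance rate of about 1 in 20 therefore does not apply to them, and flags from 1 library are not independent. The week 17 library of mouse 490 held an Rn7s2 share of 56%, a mitochondrial share of 3.45%, 2552 genes at 1 TPM or more and a median correlation of 0.413 with other libraries. It listed Spp1 at 682 TPM, Mir6236 at 891 TPM, Ltf at 268 TPM, Sparc at 325 TPM, Lmna at 289 TPM, Frmd4b at 239 TPM, Samd14 at 57 TPM, Ssx2ip at 63 TPM and Rnu12 at 0 TPM. The other flag was Vaultrc5 at 0.856 TPM in week 15 of mouse 488.

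Differences in change between cohorts were flagged where the test of the difference passed: 108 genes between CML and control mice and 2039 between TOTO and control mice. For CML minus control these include Camp (3.92), Ngp (4.09), Lcn2 (3.56), S100a8 (3.42), Retnlg (3.23), Fcer2a (-2.39), Fcmr (-2.24), H2-Q6 (-1.95), Blk (-1.96) and Spib (-2.00). For TOTO minus control they include Snora3 (2.98), Tdrp (1.91), Cecr2 (1.68), Cd209a (1.53), Hdac9 (1.62), Ngp (-7.08), Saa3 (-5.74), Col18a1 (-4.46), Cd34 (-3.57) and Camp (-4.54), all on the log2 scale.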

How the results depend on the processing

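The count of genes that passed in control mice moved with nearly every choice. Of 3185 genes (75 higher and 3110 lower), 22 passed without the week 17 library of mouse 490, and none after rescaling, with or without it (457 at an unadjusted p under 0.05 with it and 1880 without it; limma). None passed with no filter on low values (6386 at an unadjusted p under 0.05), with weekly libraries as units and mouse as a block (682), with the spread shared with CML and TOTO mice (1883), with a batch term (2454) or with haemoglobin genes and Rn7s2 left out before the TPM were scaled anew (1397). A filter at 5 TPM gave 1634 genes, medians over weeks 30, late weeks 13 to 16 45, early weeks 1 to 3 126, early weeks 4 to 6 25, and a slope over weeks 1 to 18 160. Weekly libraries as units, rescaled without that library, an alternative added after seeing the data, gave 485. Leaving out 1 mouse gave 0 to 1152 genes, with 1152 without mouse 490 and 0 without mouse 488 or mouse 489 (3194 and 2328 at an unadjusted p under 0.05), and 0 throughout on rescaled values without week 17. The causes were not tested.

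Without the replicate block by mouse no gene passed in control mice (3786 at an unadjusted p under 0.05) or between CML and control mice (335), and 31 passed between TOTO and control mice. For CML minus control, against 108, 460 passed when rescaled, 17 without week 17, 2316 with both (added after seeing the data), 17 with no filter and 748 with late weeks 15 and 16 only; leaving out 1 mouse gave 47 to 181. For TOTO minus control, against 2039, 3221 passed when rescaled, 668 without week 17, 4375 with both and 747 with late weeks 16 and 18 only; leaving out 1 mouse gave 642 to 4662. The late minus early difference in genes at 1 TPM or more was -1260 with all libraries and -584 without week 17.

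Gene by gene in control mice, 484 values under alternatives kept their direction and side of the threshold, 971 kept the direction and no longer passed, 16 passed anew and 43 turned round. With late weeks 13 to 16, Ms4a1 was at 0.02, Bank1 at 0.083, Nr1d2 at 0.02 and Bcr at 0.18. When rescaled, when also without week 17 and with weekly libraries as units, Hbb-bs was at 0.59, 0.19 and 0.23, Hbb-bt at 0.56, 0.17 and 0.20, Hba-a1 at 0.67, 0.25 and 0.28, Hba-a2 at 0.63, 0.22 and 0.25 and Bcr at 0.026, 0.28 and 0.30. Without week 17 alone Hba-a1 was at 0.018 and Bcr at 0.077, and with medians over weeks Hba-a1 was at 0.027 and Hba-a2 at 0.009. Leaving out 1 mouse gave ranges of -0.34 to 0.068 for Hbb-bs, -0.37 to 0.015 for Hbb-bt, -0.26 to 0.099 for Hba-a1, -0.29 to 0.069 for Hba-a2, -0.096 to 0.61 for Apoe, -0.096 to 0.70 for Gp1bb, -0.012 to 0.17 for Pf4, -0.001 to 0.58 for Serpinh1 and -0.018 to 1.36 for Uchl1. On rescaled values without week 17 it gave 0.117 (without mouse 488) and 0.57 (without mouse 490) for Hbb-bs, 0.105 and 0.52 for Hbb-bt, 0.194 and 0.60 for Hba-a1, 0.152 and 0.57 for Hba-a2, and 0.18 to 0.44 for Bcr.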

Other observations

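Mir6236 had a step in 1 control mouse that the window comparison mixes with the others. In mouse 489 it was at 0 to 12.6 TPM in weeks 0 to 12 and at 17.9, 23.8, 17.3, 45.2, 36.9 and 40.9 TPM in weeks 13 to 18, with no overlap. In mouse 488 it was at 2.89 to 14.8 TPM over all weeks, and in mouse 490 at 13.1 to 86.1 TPM apart from week 17. Mir6236 was looked at week by week after its window values were seen, and no test was made.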
